A study of Mus musculus with 24 samples.

Results

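Penk, Nts, Calcb, Calca, Cyp11a1 and Star form a small set of neuropeptide and steroid synthesis genes, and their levels were followed in mouse CD4 T cells during TH2 culture. Each gene was taken from probe sets that carry its symbol alone, and the probe set was selected on its mean log2 intensity over all 24 arrays, the brightest being used. Of the 6 named genes 5 were measured, each by 1 probe set, out of 19938 genes measured in all. No probe set with Calca as its symbol was found, so Calca was not analysed here.

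Penk encodes proenkephalin, the precursor of the enkephalins, which are opioid peptides. Nts encodes the precursor of neurotensin and neuromedin N, and Calcb and Calca encode the precursors of calcitonin gene-related peptide (Calca also of calcitonin). Such precursors are cut at basic residues by proprotein convertases and trimmed by carboxypeptidases before they act on receptors of the cell surface. Cyp11a1 is the mitochondrial enzyme that cleaves the cholesterol side chain to make pregnenolone, the first step of all steroid synthesis, and Star carries cholesterol to the inner mitochondrial membrane in adrenal and gonadal cells. Immune cells, including TH2 cells, are known to express Penk and Cyp11a1.

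Naive CD4 T cells came from wild-type mice (WT) of the 129SvEv strain or from Batf1/3DKO mice (DKO), also labelled 129SvEv, which lack Batf and Batf3. Batf proteins pair with Jun proteins at AP-1 sites and bind with Irf4 at composite sites, and the series title concerns how such sites grade the response to T cell receptor signals. Cells were taken unstimulated at day 0, after 2 days of TH2 culture, or after 4 days, with a dose of 2.2 or 10 ng/ml of the antibody anti-CD3e, which stimulates through the T cell receptor complex. The stimulated groups of both genotypes shared anti-CD28 and the TH2 conditions, and the labels give no anti-CD3e dose for day 2. There were 3 arrays in a group, 8 groups in all. The labels do not say whether these came from separate mice or cultures, so p-values measure the spread between arrays, which may be technical.

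Values are array intensities on a linear scale, and array medians ran from 26.4 to 31.6. Arrays of 1 group correlated at 0.983 to 0.992. Levels were not compared between genes, since probe sets differ in brightness. The median over all probe sets, 28.6, is used here to judge background (the guide). It is not a measured background, and groups can still differ below it. Readings under it may be largely background, and folds measured from such readings may be too small. Batf, the targeted gene, read 31.2 ± 3.16, 32.5 ± 5.12, 32.2 ± 4.99 and 46.5 ± 4.87 (SD, n = 3 here and throughout) in the 4 DKO groups, in the order day 0, day 2, 2.2 and 10 ng/ml. In the WT groups Batf read 135 ± 20.9, 722 ± 137, 1509 ± 125 and 1595 ± 99.8. Batf3 stood clearly above the guide in WT cells at 10 ng/ml alone (146 ± 32.8). The 7 measured T cell markers were above the guide in all 8 groups, and their summed intensity lay between 5284 and 11013. Of the 6 measured TH2 markers, all 6 were lower in DKO than in WT cells at 10 ng/ml, beside the member values given below. By the threshold set below, 12.8% of all genes differed there. Likewise 5 were lower at day 2 (2.71% of all genes), 3 at 2.2 ng/ml (3.71%) and 0 at day 0 (0.0652%). In bulk RNA, fewer cells of a type and less RNA per cell cannot be told apart.

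WT replicate 3 at 2.2 ng/ml stood apart from the other arrays of its group: Irf4 read 588 there against 338 and 267, and Il4 read 99.9 against 22.2 and 18.1. That array also held the highest Penk and Nts readings of its group, so the called Penk and Nts results that use it are given with and without it.

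A difference was called at a Benjamini-Hochberg adjusted p under 0.05 in the limma fit of all 24 arrays, and a fold is a ratio of geometric means with its 95% confidence interval. Relative to day 0, WT cells showed 4 of the 5 genes called at day 2, where 40.2% of all genes were called, 5 at 2.2 ng/ml (29.2% of all genes) and 5 at 10 ng/ml (36.4%). In DKO cells 2 genes were called at day 2 (28.6%), another count of 2 came from the lower dose (19.9%) and 3 were called with 10 ng/ml (30.7%). Between day 2 and day 4 at 10 ng/ml, 3 of 5 were called in WT cells (23.2%) and 2 in DKO cells (5.18%). Between the doses, 2 of 5 were called in WT cells (15.2%) and 2 in DKO cells (8.15%). Between the genotypes, 1 of 5 was called at day 0 (0.0652%) and 2 at day 2 (2.71%), and 3 were called at either dose of day 4 (3.71% of all genes with 2.2 ng/ml, 12.8% with 10 ng/ml). The test of whether the dose difference itself depended on genotype called 1 of 5 (6.94%), and the tests of whether activation depended on genotype called 3 at day 2 (1.05%) and 3 at 10 ng/ml (6.52%). Most of these counts therefore stand against a background in which a large share of all genes moved with activation, and a small share with genotype before day 4.

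**Figure D1:**
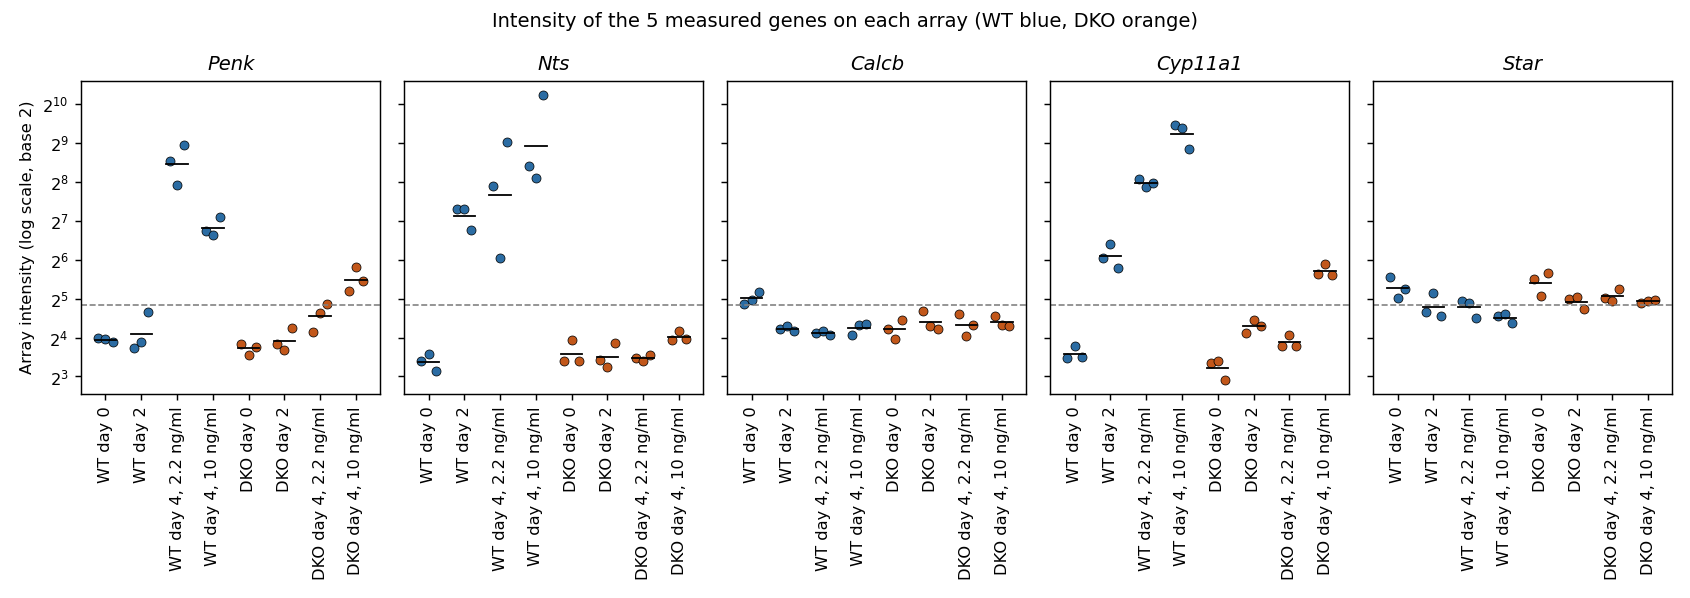
Array intensity (log scale, base 2) of Penk, Nts, Calcb, Cyp11a1 and Star on each of the 24 arrays by group; points are arrays, black bars are geometric means of 3 arrays, and the dashed line is the guide at 28.6. Nts and Cyp11a1 stand high in all 3 stimulated WT groups and Penk at day 4, with the top of Penk at 2.2 ng/ml and of Cyp11a1 at 10 ng/ml, whereas Calcb and Star keep near the guide.

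Penk was induced at day 4 and was highest at the lower dose in WT cells. The WT arrays at 2.2 ng/ml read 370.1, 242 and 495, and those at 10 ng/ml read 106, 99.1 and 137. The arrays of these groups did not overlap, and the lower dose held the higher level. At day 0 WT cells read 15.8, 15.7 and 14.8, and at day 2 they read 13.3, 14.9 and 25.1. Both of those groups lay below the guide, so Penk was not above it on any WT array before day 4.

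Relative to day 0, WT Penk rose 22.9-fold (16.2 to 32.4, adjusted p = 2.10e-13) at 2.2 ng/ml and 7.31-fold (5.17 to 10.3, adjusted p = 6.77e-10) at 10 ng/ml. Between the doses it was 3.14-fold lower at 10 ng/ml (2.22 to 4.43, adjusted p = 2.01e-05). Without WT replicate 3 at 2.2 ng/ml the rise at that dose was 19.4-fold (adjusted p = 3.01e-12) and the fold between the doses was 2.65 (adjusted p = 0.000284), so the order of the doses did not rest on that array.

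In DKO cells the order of the doses was turned. The DKO arrays at 2.2 ng/ml read 17.8, 24.9 and 28.9, and those at 10 ng/ml read 36.8, 56.2 and 44.1. The groups did not overlap, and only the higher dose lay above the guide on every array. DKO cells read 14.4, 11.8 and 13.6 at day 0 and 14.3, 12.7 and 18.9 at day 2, all below the guide. Penk rose 3.40-fold (2.41 to 4.81, adjusted p = 2.22e-06) in DKO cells at 10 ng/ml and 1.77-fold (1.25 to 2.50, adjusted p = 0.0149) at 2.2 ng/ml. The 1.77-fold rise lost its call without DKO day 0 replicate 2 (adjusted p = 0.0641), DKO 2.2 ng/ml replicate 2 (0.0554) or replicate 3 (0.0995). DKO Penk was 1.92-fold higher at 10 than at 2.2 ng/ml (1.36 to 2.72, adjusted p = 0.0132), a call lost without DKO 2.2 ng/ml replicate 1 (adjusted p = 0.112) or DKO 10 ng/ml replicate 2 (0.0949).

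The dose difference of Penk differed between the genotypes by 2.59 on the log2 scale (1.89 to 3.30, adjusted p = 1.52e-05), and by 2.35 (adjusted p = 5.87e-05) without WT 2.2 ng/ml replicate 3. DKO cells held 15.1-fold less Penk than WT cells at 2.2 ng/ml (10.7 to 21.4, adjusted p = 8.04e-11) and 2.51-fold less at 10 ng/ml (1.78 to 3.54, adjusted p = 0.000319). Without WT replicate 3 the difference at 2.2 ng/ml was 12.8-fold. The gap between the genotypes was thus wide at the lower dose and narrow at the higher one. At day 0 (1.17-fold lower, adjusted p = 0.919) and at day 2 (1.13-fold lower, adjusted p = 0.765) no difference was called, at levels below the guide. The activation of Penk to 10 ng/ml differed between the genotypes by -1.10 on the log2 scale without reaching the threshold (adjusted p = 0.0535), and was called under 6 of 22 alternatives (adjusted p from 0.00717 to 0.154).

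Nts was induced by day 2 in WT cells and stayed below the guide on all 12 DKO arrays. WT cells read 10.6, 12.0 and 8.83 at day 0 and 159, 158 and 109.6 at day 2. At day 4 they read 237, 66.6 and 526 with 2.2 ng/ml, and 339, 277 and 1206 with 10 ng/ml. The day 4 groups were spread widely and overlapped each other, and the day 2 and 2.2 ng/ml groups also overlapped. No DKO array exceeded 18.0: the groups read 12.1 ± 2.76 (day 0), 11.6 ± 2.56 (day 2), 11.1 ± 0.595 (2.2 ng/ml) and 16.3 ± 1.44 (10 ng/ml). Every stimulated WT array was therefore above every DKO array, the closest being the WT reading of 66.6.

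Nts rose 13.5-fold (6.78 to 26.8, adjusted p = 6.43e-07) at day 2 in WT cells, 19.5-fold (9.79 to 38.8, adjusted p = 1.38e-07) at 2.2 ng/ml and 46.6-fold (23.4 to 92.6, adjusted p = 1.19e-09) at 10 ng/ml. No DKO group differed from DKO day 0 by a called amount (adjusted p = 0.947, 0.927 and 0.546), with intervals of the log2 difference from -1.06 to 0.92, from -1.10 to 0.88 and from -0.55 to 1.44. These intervals use a spread shared by all groups, the widely spread WT groups included. DKO arrays at 10 ng/ml lay above those at day 0 and at 2.2 ng/ml without overlap. The 1.47-fold difference between the DKO doses was not called (adjusted p = 0.641). It was called in the limma fit of the compared groups alone (adjusted p = 0.0138). DKO cells lay 12.3-fold below WT cells at day 2 (6.19 to 24.5, adjusted p = 4.48e-05), 18.3-fold at 2.2 ng/ml (9.20 to 36.4, adjusted p = 2.38e-06) and 29.8-fold at 10 ng/ml (15.0 to 59.2, adjusted p = 4.83e-08). Since the DKO levels lay below the guide, these folds may understate the change. The response to activation differed between the genotypes by -3.82 on the log2 scale at day 2 (adjusted p = 0.00415) and by -5.09 at 10 ng/ml (adjusted p = 1.41e-05).

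The size of these differences moved with single arrays of the widely spread WT groups. Without WT 2.2 ng/ml replicate 3 the rise at that dose was 12.1-fold (adjusted p = 9.56e-07), and without replicate 2 it was 34.0-fold. Without replicate 2, DKO cells were 31.9-fold below WT cells at that dose. Without WT 10 ng/ml replicate 3 the rise at 10 ng/ml was 29.5-fold (adjusted p = 7.34e-09), the gap between the genotypes 18.9-fold (adjusted p = 3.32e-07) and the difference of the responses -4.44 on the log2 scale. All of these stayed called.

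The call of the Nts dose comparison in WT cells turned on single arrays. The fold of 10 over 2.2 ng/ml was 2.39 (1.20 to 4.76, adjusted p = 0.0855), which was not called. It became 3.85-fold (adjusted p = 0.00322) without WT 2.2 ng/ml replicate 3 and was also called without WT 10 ng/ml replicate 2 (1.66 on the log2 scale, adjusted p = 0.0351). The rise from day 2 to 10 ng/ml was 3.45-fold (1.74 to 6.87, adjusted p = 0.00704) and lost its call without WT 10 ng/ml replicate 3, the array at 1206 (1.13 on the log2 scale, adjusted p = 0.0811). Without WT 2.2 ng/ml replicate 3, DKO cells were 11.4-fold below WT cells at that dose (adjusted p = 1.36e-05).

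Of the measured genes, Nts and Cyp11a1 had an entry in the RefSeq promoter table (GRCm38.p6). The 250 bases before their start sites are shown because the deleted factors bind AP-1 sites, and the Nts window, at chr10:102490419-102490668 on the minus strand, holds such letters. Capitals mark matches to any of the motifs searched, 5′ to 3′.
Nts: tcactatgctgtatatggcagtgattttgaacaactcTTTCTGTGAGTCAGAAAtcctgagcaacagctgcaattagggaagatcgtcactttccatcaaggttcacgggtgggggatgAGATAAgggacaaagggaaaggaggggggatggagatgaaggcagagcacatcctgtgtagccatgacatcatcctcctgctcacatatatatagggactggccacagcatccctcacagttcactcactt
Cyp11a1, first start site, chr9:57997774-57998023, plus strand: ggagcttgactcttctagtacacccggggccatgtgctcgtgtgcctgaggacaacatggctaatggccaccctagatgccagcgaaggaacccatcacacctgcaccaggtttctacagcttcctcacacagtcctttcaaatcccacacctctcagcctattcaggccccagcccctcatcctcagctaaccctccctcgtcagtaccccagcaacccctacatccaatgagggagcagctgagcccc
Cyp11a1, second start site, chr9:58014702-58014951, plus strand: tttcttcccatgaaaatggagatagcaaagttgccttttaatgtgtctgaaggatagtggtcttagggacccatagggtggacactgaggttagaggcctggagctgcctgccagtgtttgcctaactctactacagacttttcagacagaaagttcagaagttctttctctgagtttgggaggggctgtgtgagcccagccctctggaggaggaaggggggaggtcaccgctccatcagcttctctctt

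Motifs were searched as exact letters on both strands of each 300-base window, which runs to 50 bases after the start: TGANTCA for AP-1, AAGGTCA for the steroidogenic factor Nr5a1, TGACGTCA for cyclic AMP response elements. For the Gata3 family the search used TGATAA. It was repeated with AGATAA for that family. A composite was an AP-1 match with GAAA, a part of the Irf binding letters, on either strand at most 4 bases away, a form chosen after the sequences had been read. In the Nts window TGAGTCA begins 207 bases before the start, with GAAA directly downstream and its reverse complement 2 bases upstream. An AGATAA match begins 131 bases before the start. Over 32841 promoter windows 7.81% held the AP-1 letters, 0.984% the composite and 11.2% AGATAA. The letters TGATAA were in 9.05%, AAGGTCA in 4.72% and TGACGTCA in 1.79%, and none of these 3 was in the Nts window. Neither Cyp11a1 window held any of the motifs searched, which says only that these letters are not in the windows. No binding was measured in these data, and a match is a description of letters.

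Calcb was low throughout and fell on activation in WT cells. WT day 0 arrays read 29.4, 31.2 and 36.3, just above the guide, while the 21 arrays of the other 7 groups lay between 15.7 and 25.5, below it. WT day 0 thus stood apart from every other group, DKO day 0 included (18.6, 15.7 and 21.8). Its highest array, replicate 3, had the lowest weight of all arrays when arrays were weighted (0.543). The falls in WT cells given next stayed called without it. In WT cells Calcb was 1.71-fold lower at day 2 (1.38 to 2.13, adjusted p = 0.000180), 1.84-fold lower at 2.2 ng/ml (1.48 to 2.29, adjusted p = 5.74e-05) and 1.70-fold lower at 10 ng/ml (1.37 to 2.11, adjusted p = 0.000249). No change was called in DKO cells, where Calcb stayed within 1.14-fold of day 0 by point estimate. At day 0 DKO cells lay 1.74-fold below WT cells (1.40 to 2.16, adjusted p = 0.0376), and this call was lost under 10 of 16 alternatives (adjusted p from 0.0210 to 0.381). The activation response differed between the genotypes by 0.96 on the log2 scale at day 2 (adjusted p = 0.0260, lost under 9 of 22 alternatives) and by 0.94 at 10 ng/ml (adjusted p = 0.00581, kept under all 22).

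The counts of the wider lists between the genotypes at 10 ng/ml are read against the 12.8% of all genes called there. Of 11 measured genes of the opioid system, which holds precursors, receptors and degrading peptidases, DKO cells at 10 ng/ml were lower for 1 (Penk) and higher for 1 relative to WT cells, with a list median of 0.13 on the log2 scale against 0.031 over all genes. The gene that was higher was Anpep, aminopeptidase N, which breaks down enkephalins. Anpep read 27.5 ± 9.27 in DKO cells and 10.3 ± 1.82 in WT cells at 10 ng/ml, both means below the guide (2.60-fold, adjusted p = 5.28e-06). Of the opioid receptors, Ogfr, the opioid growth factor receptor, which binds an enkephalin, rose 1.30-fold at day 2 (adjusted p = 0.0471) and 1.37-fold at 2.2 ng/ml (adjusted p = 0.0263) in WT cells, with group means of 88.5 to 122. Arrays of these groups overlapped those of day 0. Oprd1 group means lay between 41.0 and 50.5 with no comparison called, Oprk1 group means lay between 7.69 and 10.0 with none called, and Oprm1 lay at 12.6 to 20.0 with a fall in WT cells (1.36-fold at 10 ng/ml, adjusted p = 0.00305) and a level 1.37-fold higher in DKO than in WT cells at day 2 (adjusted p = 0.0269). Of 6 measured genes of the neurotensin system, Nts alone was called between the genotypes at 10 ng/ml (list median -0.11). The neurotensin receptors Ntsr1 (15.3 to 18.9 over group means) and Ntsr2 (20.4 to 26.5) were called in none of the 17 comparisons, and the sorting receptor Sort1 (16.2 to 20.7) was called in 1, a fall of 1.27-fold in WT cells at 2.2 ng/ml (adjusted p = 0.0379). Oprk1, Oprm1, Ntsr1, Ntsr2 and Sort1 read below the guide in all group means. The related sorting receptor Sorl1 read above it and moved: it was at 113, 38.0, 88.7 and 53.4 in WT cells from day 0 to 10 ng/ml, and at 117, 60.5, 133 and 48.2 in DKO cells. Sorl1 was lower at 10 than at 2.2 ng/ml in WT cells (1.66-fold, adjusted p = 0.00116) and in DKO cells (2.77-fold, adjusted p = 3.42e-07), and higher in DKO than in WT cells at day 2 (1.61-fold, adjusted p = 0.0111) and at 2.2 ng/ml (1.51-fold, adjusted p = 0.0243).

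Both chains of the receptor of calcitonin gene-related peptide read above the guide in all groups, and they moved differently. Calcrl, the receptor chain, read 259 ± 14.2 in WT cells at day 0 and 478 ± 26.1 at 10 ng/ml, and in DKO cells 277 ± 47.4 and 724 ± 40.2. Calcrl was 1.51-fold higher in DKO than in WT cells at 10 ng/ml (adjusted p = 0.00641) and 1.53-fold lower at day 2 (adjusted p = 0.0216). Ramp1, the accessory chain that makes Calcrl a receptor of this peptide, read 155 ± 24.4, 34.6 ± 1.19, 246 ± 64.2 and 140.4 ± 12.2 in WT cells from day 0 to 10 ng/ml. In DKO cells Ramp1 read 129 ± 7.06, 59.3 ± 7.88, 145 ± 8.40 and 70.8 ± 8.35. Ramp1 dipped at day 2 in both genotypes, where it was 1.70-fold higher in DKO cells (adjusted p = 0.00623), and was 1.99-fold lower in DKO than in WT cells at 10 ng/ml (adjusted p = 6.47e-05). Calcr, the calcitonin receptor, lay at 12.9 to 15.1 over group means with no comparison called. The related peptide Adm, adrenomedullin, rose 2.18-fold from 2.2 to 10 ng/ml in WT cells (adjusted p = 0.0144), with a mean of 31.4 ± 23.9 whose spread is near its size. Of 10 measured genes of the calcitonin family, 1 was higher (Calcrl) and 1 lower (Ramp1) in DKO cells at 10 ng/ml (list median 0.048).

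In the list of other neuropeptide precursors, none was called higher than at day 0 in WT cells. Adm, counted with the calcitonin family, was called higher than at day 0 in WT cells at 10 ng/ml. Of 31 measured, 11 were lower in WT cells at day 2, where 40.2% of all genes were called (list median -0.30 on the log2 scale against -0.11 over all genes). At 2.2 ng/ml 3 were lower (29.2% of all genes called) and at 10 ng/ml 1 was, Npff (36.4%). Of the 31, 0 were called between the doses in WT cells (15.2% of all genes) and 0 between the genotypes at 10 ng/ml (12.8%) in the limma fit. Of these comparisons, 1 and 2 precursors had an unadjusted p under 0.05. After a further cyclic loess or quantile step the counts of calls were also 0. In DKO cells at 10 ng/ml 2 precursors were called higher than at day 0 and 1 (Tac4) lower, where 30.7% of all genes were called. Those higher were Grp, the precursor of gastrin-releasing peptide (1.68-fold, adjusted p = 0.00264), and Npw, that of neuropeptide W (1.68-fold, adjusted p = 0.00215). Grp was also higher at 2.2 ng/ml, relative to day 0 (1.72-fold, adjusted p = 0.00302) and to WT cells (1.76-fold, adjusted p = 0.0106), at group means of 11.9 to 21.6, below the guide. Npw was also higher at day 2 in DKO cells (1.56-fold, adjusted p = 0.00791).

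Of 17 measured genes of precursor processing, 3 rose and 1 fell (Pcsk7) from 2.2 to 10 ng/ml in WT cells (15.2% of all genes), and 3 were lower in DKO than in WT cells at 10 ng/ml, of which Furin and Cpd stayed called after either further step and Ctsl did not. The median of the processing list was near that of all genes (-0.069 against -0.045 between the WT doses, 0.0075 against 0.031 between the genotypes).

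Furin, a proprotein convertase, read 139.6 ± 23.0 in WT cells at 10 ng/ml and at 56.9 to 86.6 over the other group means. It was 2.34-fold higher at 10 than at 2.2 ng/ml in WT cells (adjusted p = 7.22e-05) and 2.25-fold lower in DKO than in WT cells at 10 ng/ml (adjusted p = 0.000136). Cpd, a carboxypeptidase that trims the cut ends, read 17.1 ± 2.02, 197 ± 1.30, 25.3 ± 10.6 and 174 ± 32.2 in WT cells from day 0 to 10 ng/ml, so it was high at day 2 and at 10 ng/ml and below the guide otherwise. In DKO cells Cpd read 14.4 ± 3.30, 46.5 ± 9.88, 25.7 ± 0.745 and 56.7 ± 12.7, 3.09-fold below WT cells at 10 ng/ml (adjusted p = 1.32e-05). Ctsl, cathepsin L, read 50.1 ± 9.74 in WT and 31.2 ± 4.65 in DKO cells at 10 ng/ml (1.60-fold, adjusted p = 0.0481). Penk was highest at 2.2 ng/ml, where Furin, Cpd and Ctsl were at 59.3, 25.3 and 23.3.

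Cyp11a1 rose on activation and with dose in both genotypes, from levels below the guide, and was far lower in stimulated DKO than WT cells. WT cells read 11.2, 13.8 and 11.2 at day 0 and 66.6, 85.7 and 55.1 at day 2. They read 272, 236 and 252 at 2.2 ng/ml and 706, 668 and 466 at 10 ng/ml. The 4 WT groups did not overlap, and the level increased at each step. DKO cells read 10.2, 10.6 and 7.57 at day 0, 17.3, 22.0 and 19.8 at day 2, 13.9, 16.8 and 13.8 at 2.2 ng/ml, and 50.1, 59.1 and 48.9 at 10 ng/ml. The DKO arrays at 2.2 ng/ml lay below those at day 2 without overlap. The DKO cells crossed the guide at 10 ng/ml alone, where their arrays overlapped those of WT cells at day 2.

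In WT cells Cyp11a1 rose 5.66-fold at day 2 (4.43 to 7.24, adjusted p = 2.02e-11), 21.1-fold at 2.2 ng/ml (16.5 to 27.0, adjusted p = 5.15e-16) and 50.2-fold at 10 ng/ml (39.3 to 64.3, adjusted p = 5.45e-18). In DKO cells it rose 2.09-fold (1.64 to 2.68, adjusted p = 2.40e-05), 1.58-fold (1.23 to 2.02, adjusted p = 0.00668) and 5.61-fold (4.38 to 7.18, adjusted p = 2.61e-11). The 1.58-fold rise lost its call without DKO day 0 replicate 3 (adjusted p = 0.0608). DKO cells were 3.47-fold lower than WT cells at day 2 (2.71 to 4.44, adjusted p = 5.87e-07), 17.2-fold lower at 2.2 ng/ml (13.4 to 21.9, adjusted p = 5.76e-14) and 11.5-fold lower at 10 ng/ml (8.98 to 14.7, adjusted p = 1.84e-13). At day 0 the difference was 1.28-fold and not called (adjusted p = 0.698). The activation response differed between the genotypes by -1.44 on the log2 scale at day 2 (adjusted p = 0.00281) and by -3.16 at 10 ng/ml (adjusted p = 2.14e-09).

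Cyp11a1 was higher at the higher dose in DKO cells too. The fold of 10 over 2.2 ng/ml was 2.38 in WT cells (1.86 to 3.05, adjusted p = 8.72e-06) and 3.56 in DKO cells (2.78 to 4.55, adjusted p = 8.37e-08). The dose difference did not differ between the genotypes by a called amount (0.58 on the log2 scale, interval 0.076 to 1.08, adjusted p = 0.190). The DKO arrays at 2.2 ng/ml lay below the guide, so the DKO fold may be too small, and equal dose responses are not shown. In this Cyp11a1 stood unlike Penk, whose dose difference had opposite signs in the genotypes.

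**Figure D2:**
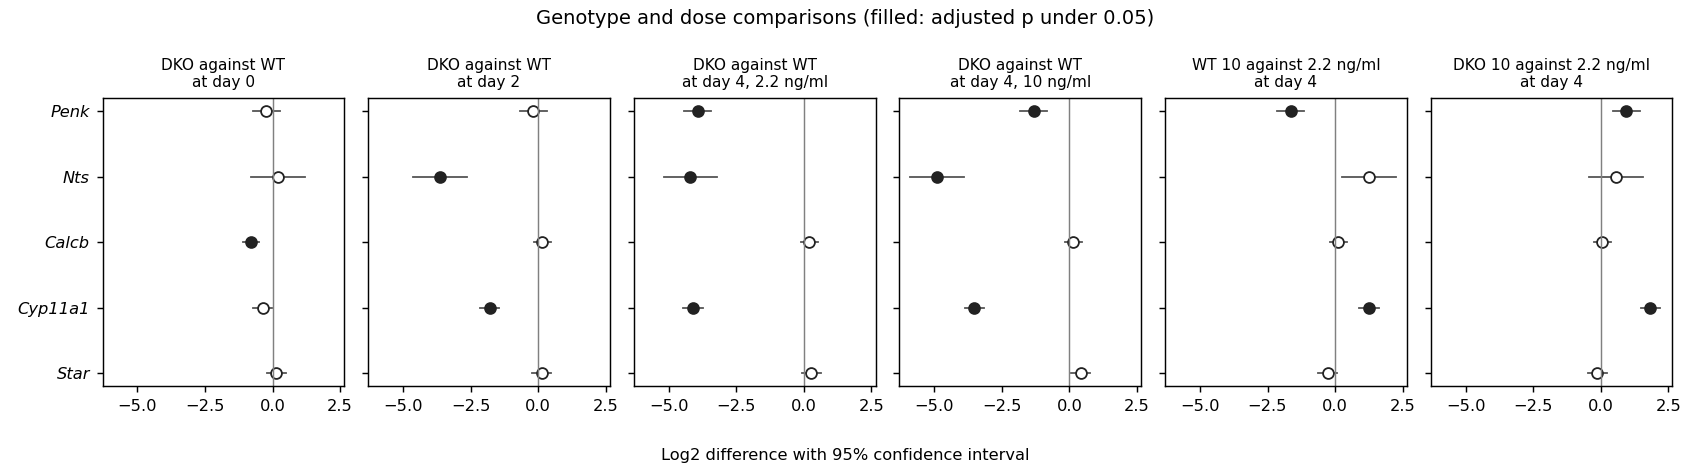
Log2 difference (point) with its 95% confidence interval (line) of the 5 measured genes for DKO against WT cells in each state and for 10 against 2.2 ng/ml in each genotype; filled points have an adjusted p under 0.05. Penk lies at -1.65 between the WT doses and at 0.94 between the DKO doses, whereas Cyp11a1 lies at 1.25 and 1.83.

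Star stayed near the guide and did not follow Cyp11a1. WT cells read 46.9, 32.3 and 38.4 at day 0 and 23.7, 24.4 and 20.6 at 10 ng/ml, and DKO cells read 45.5, 33.9 and 50.2 at day 0 and 29.9, 30.9 and 31.4 at 10 ng/ml. The other groups lay between 22.7 and 37.8 by array, and in the order of the 8 group means each group overlapped its neighbour. Star fell 1.70-fold in WT cells at 10 ng/ml (1.33 to 2.17, adjusted p = 0.000863), a call kept under all 16 alternatives. The falls of 1.41-fold in WT cells at day 2 (adjusted p = 0.0230) and at 2.2 ng/ml (0.0310), of 1.41-fold in DKO cells at day 2 (0.0308) and of 1.39-fold at 10 ng/ml (0.0360) were each lost under 7 of 16 alternatives. At 10 ng/ml the DKO arrays lay above the WT arrays without overlap, by 1.34-fold (1.05 to 1.72), which was not called (adjusted p = 0.115). Neither dose comparison of Star was called (adjusted p = 0.363 and 0.798).

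The enzymes around Cyp11a1 were present in part. Fdx1, the ferredoxin that passes electrons to Cyp11a1, read 71.7 ± 9.52 in WT and 71.6 ± 27.3 in DKO cells at day 0 and 144 ± 13.7 and 152 ± 22.8 at 10 ng/ml. It rose 2.01-fold (adjusted p = 0.00107) and 2.21-fold (adjusted p = 0.000322), and no genotype comparison of Fdx1 was called. Fdxr, the reductase that feeds Fdx1, was not analysed here. Hsd3b1 (5.15 to 6.02 over group means) and Hsd3b6 (9.29 to 11.5), which turn pregnenolone into progesterone, read far below the guide in all groups with no comparison called. Nr5a1, the nuclear receptor that drives Cyp11a1 and Star in endocrine cells, lay at 26.3 to 32.6 and fell 1.24-fold in WT cells at 10 ng/ml (adjusted p = 0.0346).

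Among 16 measured genes of cholesterol import and side chain cleavage, 7 rose from 2.2 to 10 ng/ml in WT cells (15.2% of all genes were called) and 5 in DKO cells (8.15%), and none fell (list medians 0.21 and 0.14 against -0.045 and -0.012 over all genes). Cyp11a1 itself is in both counts. After the further quantile step the WT count was 6. Relative to WT cells, 3 were lower in DKO cells at 2.2 ng/ml (3.71% of all genes) and 6 at 10 ng/ml (12.8%), Cyp11a1 again in both. The list medians were -0.17 and -0.0082, against 0.0014 and 0.031 over all genes. After the quantile step 1 more gene was called higher at 10 ng/ml. Vdac1, a channel of the outer mitochondrial membrane, is 1 of the 6 lower at 10 ng/ml. It read 126 ± 31.2 in WT cells at day 0 and 1115 ± 149 at 10 ng/ml, against 166 ± 18.6 and 711 ± 35.2 in DKO cells (1.56-fold lower than in WT cells at 10 ng/ml, adjusted p = 0.0241).

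Among 24 measured genes of later steroid synthesis and metabolism, Hsd17b7 and Akr1c18 were called between the genotypes at 10 ng/ml, both lower in DKO cells (list median -0.023). Akr1c18, which inactivates progesterone, read 14.3 ± 1.91, 204 ± 39.0, 222 ± 60.5 and 444 ± 234 in WT cells from day 0 to 10 ng/ml. In DKO cells Akr1c18 read 14.6 ± 0.406, 62.1 ± 21.5, 110.2 ± 49.7 and 40.1 ± 17.5, so its highest DKO level was at 2.2 ng/ml. It was 10.9-fold lower in DKO than in WT cells at 10 ng/ml (adjusted p = 1.39e-07), and its dose difference differed between the genotypes by -2.34 on the log2 scale (adjusted p = 0.00445). Hsd17b7, a reductase of cholesterol and sex steroid synthesis, read 412 ± 102 in WT and 184 ± 37.8 in DKO cells at 10 ng/ml (2.22-fold, adjusted p = 0.00150).

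Of 15 measured factors that act on steroid synthesis genes in endocrine cells, 3 were lower in DKO than in WT cells at 10 ng/ml (Gata3, Nr4a2 and Crem). Crem, a cyclic AMP response factor, read 186 ± 19.5 in WT and 42.1 ± 2.60 in DKO cells (4.41-fold, adjusted p = 3.88e-08), and rose 3.65-fold from 2.2 to 10 ng/ml in WT cells (adjusted p = 3.73e-07). Of 9 measured steroid receptors, 2 were higher and 1 lower in DKO cells at 10 ng/ml. The lower one, Vdr, the vitamin D receptor, read 880.5 ± 120.3 in WT and 213 ± 19.3 in DKO cells (4.12-fold, adjusted p = 4.63e-08), and rose 10.4-fold with dose in WT cells (adjusted p = 1.26e-11) and 4.36-fold in DKO cells (adjusted p = 8.37e-08).

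**Figure D3:**
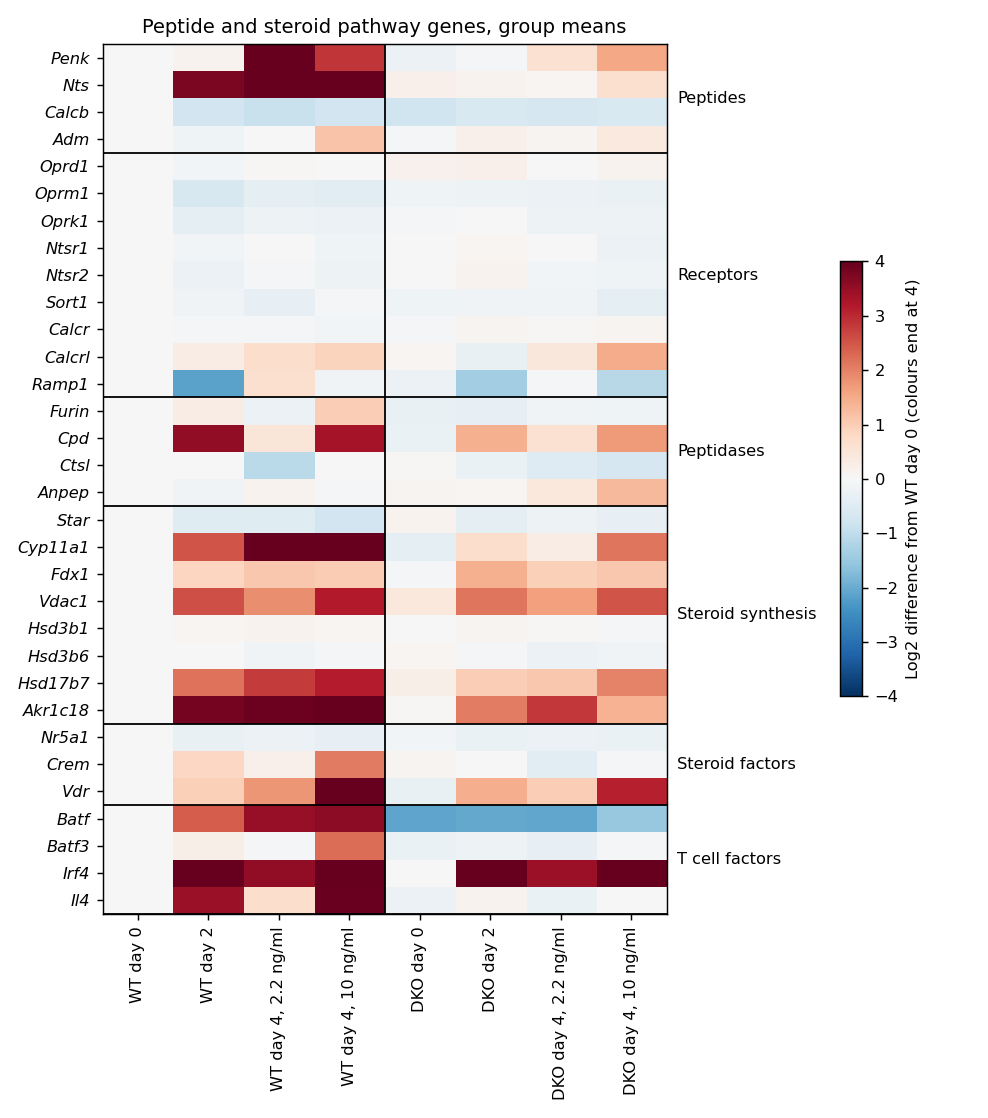
Group means of peptide, peptide receptor, peptidase and steroid synthesis genes as the log2 difference from WT day 0 (colour, ending at 4 in either direction), with genes in rows and the 8 groups in columns. Further rows hold steroid factors (Nr5a1, Crem and Vdr) and T cell factors (Batf, Batf3, Irf4 and Il4). Nts, Cyp11a1 and Akr1c18 are deep in all 3 stimulated WT columns and Penk in those of day 4, and the peptide receptor rows other than Calcrl and Ramp1 stay pale.

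Markers of other cell types that make these products were low. The 6 measured markers of adrenal and gonadal cells summed to 83.0 to 100.6 per array, with Nr5a1 the brightest in every group. The 10 markers of mast cells and basophils, which can also express Cyp11a1, summed to 111 to 145 per array in 7 groups and to 160.1 to 174 in DKO cells at 10 ng/ml. Hdc, histidine decarboxylase, made up most of that gap: it read 60.7 ± 9.74 there and 13.5 to 25.6 over the other group means. The protease Prss34 lay near the guide at 26.9 to 30.7, Tpsb2 at 23.4 to 28.0, and the other 7 (Cpa3, Mcpt8, Mcpt4, Cma1, Fcer1a, Ms4a2 and Mcpt1) at 5.15 to 10.8 over group means. In WT cells at 10 ng/ml the mast cell and basophil markers summed to 111 to 120.3. The 7 neuronal and endocrine markers summed to 114 to 162, with Syp (33.7 to 58.6 over group means) the only one above the guide, and highest in DKO cells at 2.2 ng/ml. Among markers of further cell types, Cd68 (56.1 to 81.6 over group means) and Cd8b1 (35.9 to 65.4) read above the guide in every group. Cd79b reached 88.8 in DKO cells at 10 ng/ml. Which cells held the RNA of the measured genes was not tested.

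Genes of like pattern were ranked by Pearson correlation over the 8 group means of log2 values, among 4642 genes (4643 for Calcb and Star) with a range of at least 1 on that scale. The points share arrays, genotypes and states, so these are descriptions. S100a6 was nearest to Penk (r = 0.953, the only gene above 0.95), followed by Plekho2 (0.941), Shtn1 (0.936), Gzmb (0.930) and F2rl2 (0.926). Gzmb, granzyme B, was higher at the lower dose in WT cells, at 206 ± 115 against 42.2 ± 15.6 at 10 ng/ml. In DKO cells Gzmb read 17.6 ± 4.15 and 15.7 ± 0.312 at these doses, without the rise seen for Penk. S100a6 (189 and 126) and F2rl2 (393 and 261) were also higher at the lower dose in WT cells. Plekho2 (114 and 112) and Shtn1 (36.3 and 34.3) read nearly alike at both WT doses. For Nts 15 genes were above 0.95, led by Mif4gd (0.980), Rai14 (0.978), Pparg (0.977), Il10 (0.971) and Sco1 (0.966). Il10, an inhibitory cytokine, read 428 ± 146 and 590 ± 267 in WT cells at 2.2 and 10 ng/ml and below 10 in every DKO group. For Cyp11a1 22 genes were above 0.95, led by Chmp4b (0.985), Klf12 (0.982), Auh (0.976), Ier3 (0.975) and Shtn1 (0.972). Star had 55 genes above 0.95, led by B4galnt1 (0.990), Gps2 (0.988), Zfp831 (0.987), Ccdc171 (0.983) and Fam53b (0.981), over a range of only 0.90. Calcb had none, its nearest being Rbm3os (0.892), Cyp2t4 (0.826), Hspa1a (0.813), Myo9a (0.809) and Ifit3b (0.808). Between the measured genes, Cyp11a1 correlated with Nts at 0.938 and with Penk at 0.840, and Penk with Nts at 0.714. Star ran opposite to these, at -0.903 with Cyp11a1, -0.832 with Nts and -0.636 with Penk. Calcb correlated at -0.505 with Nts, -0.469 with Cyp11a1, -0.429 with Penk and 0.447 with Star.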

How the data were processed

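RNA of naive or TH2-cultured CD4 T cells was hybridised to 24 gene arrays with biotin label. The authors deposited intensity values computed with RMA, per the submitters' processing notes, on a linear scale from 1.95 to 14645; the software version is not given in the sources used here. RMA puts arrays on nearly the same distribution, so shifts common to most genes cannot be seen, and background can make folds of dim genes too small. Of 35556 probe sets, 21789 carried 1 gene symbol in the platform annotation, 1621 several and 12146 none, and the last 2 kinds were left out. For 999 genes with several probe sets the brightest was used, which left 19938 genes. The number of arrays limits the precision.

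Log2 intensities were fitted with limma 3.58.1 in R 4.3.3, with a mean for each of 8 groups over all 24 arrays (16 residual and 7.49 prior degrees of freedom), and 17 comparisons were adjusted by Benjamini-Hochberg over all genes within each. Comparisons of one genotype share their day 0 arrays. The fit was tested on simulated data. Other settings tried were leaving out dim genes, taking probe sets separately or averaged per gene, a further cyclic loess or quantile step, fitting only the groups compared, blocking on the replicate number, a variance trend with robust moderation, weighting arrays, leaving out each array, and leaving out WT 2.2 ng/ml replicate 3 and WT day 2 replicate 3 together.

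The 6 genes, 9 pathway lists (139 of 150 genes measured) and markers were chosen with earlier results of these data known, so their p-values do not test that choice. Named list genes are those called at 2-fold or more between the WT doses or between the genotypes at 10 ng/ml, receptors of the peptides and partners of Cyp11a1, and for each measured gene the 5 of most like pattern. Names given with counts of 5 or fewer, and Gzmb, Il10, Hdc, Syp, Ogfr, Sorl1, Grp and Npw,, were chosen after their values were seen. Promoter sequences are RefSeq's (GRCm38.p6), and the arrays' build is not given in the sources used here.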

Additional observations from a re-analysis of the deposited data

Results flagged for a closer look

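These results stood out because an effect of dose or activation differed between WT and DKO cells by a test of the difference itself in the limma fit. For Penk the difference between 10 and 2.2 ng/ml was 2.59 on the log2 scale higher in DKO than in WT cells (n = 3 arrays a group), since Penk was lower at the higher dose in WT cells and higher at it in DKO cells. For Nts the response relative to day 0 was -3.82 at day 2 and -5.09 at 10 ng/ml in DKO relative to WT cells, with all stimulated WT arrays above all DKO arrays. For Cyp11a1 it was -1.44 at day 2 and -3.16 at 10 ng/ml. For Calcb it was 0.96 at day 2 and 0.94 at 10 ng/ml, and the WT day 0 arrays of Calcb lay above all others. The causes of these differences were not tested.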

How the results depend on the processing

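Of 85 results, 5 genes in 17 comparisons, 70 kept their side of the threshold under every alternative that changes their own groups or the processing. All 46 called results kept their direction, whereas 13 of the 34 results called under no alternative changed sign in at least 1. The comparison of DKO with WT cells at day 0 depended most on the setting. It called 13 genes, against 4 with cyclic loess, 2 with the compared groups alone and 6 with array weights, and its 1 measured gene called, Calcb, fell to 0 with cyclic loess, the compared groups alone, the replicate block, array weights and without both WT arrays. DKO day 2 against day 0 called 2 of the 5 genes and 1 with cyclic loess, quantile normalization, the compared groups alone or array weights. At 2.2 ng/ml 739 genes were called between the genotypes and 462 with the compared groups alone. Leaving out 1 array gave 4 to 16 genes and 0 to 1 of the 5 genes between the genotypes at day 0, 298 to 630 genes at day 2 (541 with all arrays) and 489 to 819 at 2.2 ng/ml. It gave 583 to 1112 genes for DKO 10 ng/ml against day 2 (1033), 1058 to 1727 for the DKO doses (1625) and 98 to 270 for the day 2 interaction (209). Of the 5 genes it gave 1 to 2 for DKO day 2, 1 to 2 for DKO 2.2 ng/ml against day 0 and 1 to 2 for the DKO doses. The cause was not tested, although fewer arrays enter the fit in the last settings. The replicate numbers did not pair the arrays across the series: in 0 of 28 pairs of groups did every same-number correlation exceed 0.1. The mean was 0.0048 for same numbers and -0.0024 for others. The pair of WT day 4 groups had the highest same-number mean, 0.16 (lowest 0.054), against -0.080 for other numbers. The replicate block gave a call to the activation of Penk at 10 ng/ml between the genotypes (adjusted p = 0.0214). Renormalization raised the median of all genes in the WT comparisons with day 0 by up to 0.14 on the log2 scale. Each measured gene has 1 probe set, so no other probe set could be tried for its levels. In the 250 bases before the start alone, 6.75% of windows held the AP-1 letters and 0.822% the composite. Levels below the guide limit what folds of Nts, Penk and Cyp11a1 at day 0 show.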
